A study of Mus musculus with 7 samples.

Results

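The genes described here are 36 regulators of NF-kB signalling, chemokines and epithelial cytokines, chosen by symbol from a list of pathway members and found by their Ensembl identifiers among the 54446 genes of the count table. They were measured by sequencing polyadenylated RNA of pancreatic spheroids, which are 3-dimensional cultures of pancreatic epithelial cells. The 4 post-caerulein libraries came from wild-type C57BL/6J mice treated beforehand with caerulein, an analogue of cholecystokinin that sets off pancreatitis, and the 3 untreated libraries came from untreated mice of the same strain. Both groups were cultured in a medium that held EGF, hydrocortisone, cholera toxin, insulin and pituitary extract, so every library carries those agents. The sources used here do not give the dose, the time between caerulein and culture, the age of the mice or the number of mice behind a library. The p-values therefore rest on the spread from library to library, and part of that spread may be technical.

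NF-kB is a family of dimeric transcription factors that are held in the cytoplasm by inhibitor proteins of the IkB class. Signals from TNF, interleukin-1 or Toll-like receptors lead to the breakdown of the inhibitor, and the dimer then enters the nucleus and turns on chemokine, cytokine and survival genes together with its own inhibitors, which end the response. In the exocrine pancreas this pathway is known for its activation early in caerulein pancreatitis, when acinar and ductal cells release chemokines that draw neutrophils and monocytes.

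Total counts lay between 34783738 and 46744497 per library. The epithelial label matched the marker genes, whose summed level was 14663 to 22501 CPM in post-caerulein libraries and 14913 to 16268 CPM in untreated ones over 9 keratin, cadherin and ductal genes. Leukocyte markers summed to 15.6 to 37.7 CPM in post-caerulein libraries and 22.2 to 99.9 CPM in untreated ones, with 12 of 15 genes under 1 CPM (gene counts scaled to a common library size by TMM) in every library, the pan-leukocyte gene Ptprc at no more than 0.105 CPM, and the lysosomal gene Cd68 giving most of the sum. Sums over 11 fibroblast and stellate cell markers were 3.48 to 8.02 CPM in post-caerulein libraries and 0.295 to 22.7 CPM in untreated ones, those over 6 endothelial markers 0.449 to 1.39 CPM in post-caerulein libraries and 1.36 to 2.83 CPM in untreated ones, and those over 7 acinar markers, of which Amy2a1 was at 0 throughout, 1.69 to 11.4 CPM in post-caerulein libraries and 0.619 to 0.696 CPM in untreated ones. The highest leukocyte sum and the highest fibroblast and stellate sum were both in untreated 03. In untreated 01 and 02 these sums were 26.3 and 22.2 CPM for leukocyte markers, and 0.520 and 0.295 CPM for fibroblast and stellate markers. Cd68 gave 97.9 of the 99.9 CPM leukocyte sum in untreated 03, so the rank of that library is the rank of Cd68. None of the other leukocyte markers with enough reads to be tested was highest in untreated 03. Csf1r, Cd74 and S100a9 were at 0.623, 0.356 and 0.289 CPM there. In bulk RNA of this kind, fewer cells of a type and less RNA per cell cannot be told apart. By root mean square log2 difference over all tested genes, post-caerulein 04 and untreated 03 were nearest each other, at 0.60. The next nearest library to both was post-caerulein 02, at 0.72 and 0.80. Untreated 01 and 02 (0.41) as well as post-caerulein 02 and 03 (0.32) were close pairs, and untreated 02 lay 0.78 from post-caerulein 02. Over the tested members, post-caerulein 01 lay farthest from its nearest library, at 1.50. The libraries thus did not split cleanly into those 2 and the other 5, so each result below is given library by library.

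Of the 36 members, 31 had enough reads to be tested and 5 did not. Nfkbia, Rela, Cxcl16, Tnip1, Nfkb2 and Tnfaip3 were the most abundant per unit of transcript length, with medians over the 7 libraries of 364, 136, 134, 109.8, 104 and 104 TPM (a length-scaled share of transcripts, computed from the counts and exon lengths). Cxcl1 and Cxcl5 followed at 95.1 and 94.1 TPM, whereas Tnf, Il23a and Ccl5 lay at 2.00, 1.28 and 0.803 TPM. From Rela to Cxcl5, each gene's range over the libraries overlapped that of the next in this order, whereas the lowest Nfkbia value lay above the highest Rela value. The inhibitor Nfkbia was thus the most abundant member by its median, and the cytokines Il6, Il1b and Tnf were scarce.

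Between the groups, the edgeR quasi-likelihood test with the group as its only term and Benjamini-Hochberg adjustment called 0 of the 31 tested members at an adjusted p under 0.05, as it did 0% of the 16438 genes tested, and 6 members (19.4%) had an unadjusted p under 0.05 against 9.5% of all genes. With the same term, limma-voom called 0 members, beside 0% of all genes, and DESeq2 called 3, beside 3.12% of all genes. A second fit added a block term that sets post-caerulein 04 and untreated 03 apart from the other 5 libraries. No label names this block. It was taken from earlier work on these data, where it brought a refit close to the authors' deposited table, and a likelihood ratio refit here gave 870 of the 1023 genes called by the authors' deposited table when the block was a term, and 263 when it was not. With the block, 2 of 31 members were called, both lower in post-caerulein libraries (Il33 and Ccl5), beside 1.53% of all genes called in either direction and 0.876% called lower. In that fit 10 members (32.3%) had an unadjusted p under 0.05 by the same quasi-likelihood test, against 17.5% of all genes. The median log2 change of the tested members was 0.20 without and 0.25 with the block, where all tested genes had medians of -0.02 and -0.004.

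The pattern that stood out was within the post-caerulein group. Post-caerulein 01 held the highest CPM of 22 of the 31 tested members (71%), whereas it held the highest value of 19% of all tested genes. Over the members, its level was a median of 0.61 (log2 of CPM + 0.5) above the median of the other 3 post-caerulein libraries, against 0.01 over all tested genes, and 11 members (35.5%) lay more than 2-fold above that median, against 1.41% of all tested genes. This library was singled out after its values were seen, so these shares are a description of 1 library. Its summed epithelial markers were 22501 CPM, against 14663, 15264 and 15916 CPM in post-caerulein 02 to 04. Its summed leukocyte markers were the lowest of the 7 at 15.6 CPM, but Cd68 alone gave 11.7 CPM of that and set the rank. Of the other leukocyte markers with enough reads to be tested, Cd74 and S100a9 were highest in this library, at 1.79 and 0.533 CPM. Csf1r, at 0.925 CPM, was the lowest of the post-caerulein group there.

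**Figure D1:**
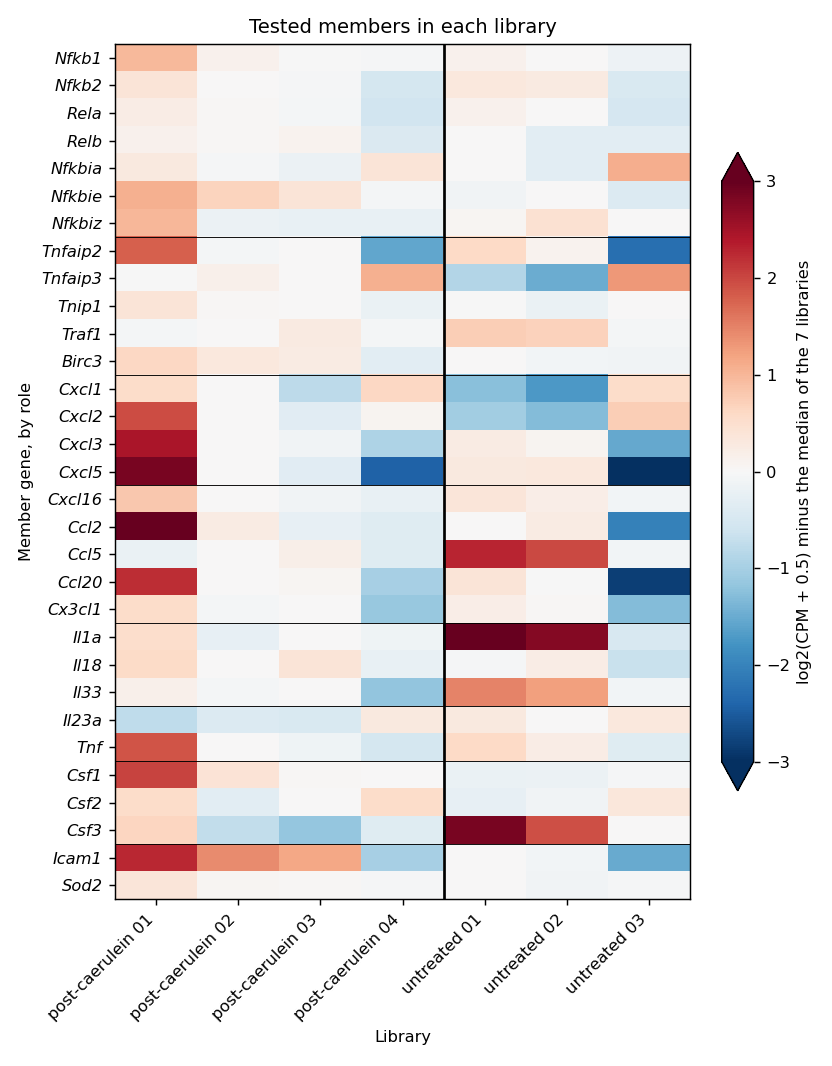
Level of each of the 31 tested members (rows, grouped by role) in each library (columns), as log2(CPM + 0.5) minus the member's median over the 7 libraries; red is above and blue below that median, and colours stop at 3 in either direction. Post-caerulein 01 is the highest library for 22 members, while Il1a, Il33, Ccl5 and Csf3 are highest in untreated 01 and 02.

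None of the subunits of the transcription factor passed the test in either fit. Rela, the transactivating p65 subunit, stood at 168, 146, 139 and 96.2 CPM in post-caerulein 01 to 04, against 157, 143 and 102 CPM in untreated 01 to 03. Nfkb1, which encodes p105 and p50, was at 198, 109, 99.8 and 97.8 CPM in post-caerulein 01 to 04, against 110.2, 100.2 and 90.5 CPM in untreated 01 to 03. The groups overlapped for both: post-caerulein 01 was high for Nfkb1, and post-caerulein 04 and untreated 03 were the low libraries for Rela. Nfkb2 and Relb, the subunits of the alternative pathway, ranged over 93.2 to 175 CPM in post-caerulein libraries and 96.6 to 166 CPM in untreated ones, and over 47.5 to 70.3 CPM in post-caerulein libraries and 51.3 to 64.4 CPM in untreated ones. No member of the Rel and IkB group of 7 was called in either fit, and their log2 changes with the block lay between -0.13 (Nfkb2) and 0.68 (Nfkbie).

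The inhibitors differed in which libraries were high. Nfkbia (IkB alpha, chromosome 12, 55489410 to 55492647, minus strand, GRCm38), the inhibitor that NF-kB itself induces most rapidly, was at 277, 224, 201 and 298 CPM in post-caerulein 01 to 04, against 228, 183 and 482 CPM in untreated 01 to 03. Untreated 03 was the highest of the 7 libraries, post-caerulein 04 the next, and the groups overlapped. Nfkbie (IkB epsilon), a slower feedback inhibitor, was at 23.5, 17.6, 14.5 and 10.5 CPM in post-caerulein 01 to 04, against 10.2, 10.9 and 8.05 CPM in untreated 01 to 03. Its log2 change was 0.68 ± 0.19 (SE) with the block (adjusted p = 0.129, edgeR quasi-likelihood test, Benjamini-Hochberg) and 0.76 ± 0.28 without it (adjusted p = 0.417), so it did not pass in either, although only post-caerulein 04, at 10.5 CPM, fell within the untreated range. Nfkbiz, the atypical nuclear IkB zeta that cooperates with NF-kB at secondary targets, was at 249, 110.5, 107 and 107 CPM in post-caerulein 01 to 04, against 129, 172 and 125 CPM in untreated 01 to 03, with post-caerulein 01 alone above all untreated values.

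The promoters of the members were searched for the DNA element that NF-kB binds, the kappaB consensus. The pattern was GGGRNNYYCC, where R is A or G, Y is C or T and N is any base. RefSeq promoters (250 bases before to 50 after the start, GRCm38.p6) were found for 25 of the 36 members, and 13 of those 25 genes (52%) held the kappaB consensus on either strand, against 9.55% of the 27025 genes in the table. Several members are in the list because they are known NF-kB targets, so this share describes the choice of genes. No match was found in either promoter of Il33 or in those of Il1a and Icam1, and Ccl5 was not searched. Sites that depart from the pattern, or lie outside the 300 bases, would be missed. The Icam1 promoter holds ggaaattcct, which differs from the Nfkbia element below in its last base. The 4 genes shown hold a match and were not called in either fit. For Tnfaip3, which has 2 matches, the one nearer the start is shown. The windows below give the element in capitals, with 20 bases on either side, 5′ to 3′ on the strand of the gene. They show that Nfkbia and Tnfaip3, which had their highest levels in untreated 03, and Nfkbie and Csf1, which had theirs in post-caerulein 01, all carry it.
Nfkbia: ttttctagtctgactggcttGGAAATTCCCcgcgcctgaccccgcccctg
Nfkbie: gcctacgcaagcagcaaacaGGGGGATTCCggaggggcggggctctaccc
Tnfaip3: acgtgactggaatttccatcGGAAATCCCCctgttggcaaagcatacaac
Csf1: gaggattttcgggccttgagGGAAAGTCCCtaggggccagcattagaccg
These windows are chr12:55492647-55492696 (minus strand), chr17:45555574-45555623 (plus strand), chr10:19015393-19015442 (minus strand) and chr3:107760594-107760643 (minus strand), and the elements begin 29, 106, 12 and 154 bases before the start. A match is a run of letters in the reference and was not measured as a bound site.

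Of the 5 feedback and survival genes, Tnfaip3 was high in post-caerulein 04 and untreated 03, and Tnfaip2 was low in them. Tnfaip3 (A20, chromosome 10, 19000910 to 19015410, minus strand), a ubiquitin-editing enzyme that ends NF-kB signalling, was at 186, 209, 188 and 395 CPM in post-caerulein 01 to 04, against 102, 67.1 and 468 CPM in untreated 01 to 03. Post-caerulein 04 and untreated 03 were the highest, and within the other 5 libraries every post-caerulein value lay above both untreated values. Its log2 change was 0.77 ± 0.30 (SE) with the block (adjusted p = 0.245, edgeR quasi-likelihood test, Benjamini-Hochberg) and 0.20 ± 0.65 without it (adjusted p = 0.967). Without untreated 01, untreated 02 or post-caerulein 04 the estimate without the block turned negative, at -0.13, -0.22 and -0.13, and without untreated 03 it was 1.55.

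The other 4 feedback and survival genes did not pass the test either. Tnip1 (ABIN1), which binds A20, ranged over 118 to 177 CPM in post-caerulein libraries and 117 to 135 CPM in untreated ones, and Birc3 (cIAP2), a ubiquitin ligase of the TNF receptor complex, over 45.4 to 87.4 CPM in post-caerulein libraries and 52.9 to 56.9 CPM in untreated ones. Tnfaip2, a TNF-induced gene, was at 390.2, 107, 112 and 37.5 CPM in post-caerulein 01 to 04, against 168, 119.8 and 23.1 CPM in untreated 01 to 03, so that post-caerulein 04 and untreated 03 were the 2 lowest libraries, the reverse of Tnfaip3. Traf1, a TNF receptor adaptor, was scarce, at 0.0841, 0.111, 0.232 and 0.0841 CPM in post-caerulein 01 to 04, against 0.520, 0.485 and 0.0890 CPM in untreated 01 to 03. The groups overlapped for all 5 genes and none was called in either fit, with adjusted p of at least 0.178 with the block by the edgeR quasi-likelihood test with Benjamini-Hochberg adjustment.

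The chemokines with the ELR motif, which attract neutrophils through CXCR2, lie close together on chromosome 5, and 3 of the 4 whose promoters were searched hold the kappaB element. Cxcl15 has no match and Cxcl5 was not searched. The windows below, chosen because these 3 genes have the same capitals in different flanks, give the plus strand.
Cxcl1: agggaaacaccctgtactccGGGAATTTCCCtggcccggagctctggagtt
Cxcl2: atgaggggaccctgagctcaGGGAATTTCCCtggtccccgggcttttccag
Cxcl3: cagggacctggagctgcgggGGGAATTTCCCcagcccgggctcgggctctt
They lie at chr5:90891154-90891204, chr5:90903782-90903832 and chr5:90786008-90786058 (GRCm38.p6), and the capitals cover 2 overlapping matches, 1 on each strand, that begin 71, 97 and 73 bases before the start. Each of the 3 windows holds the same 11 letters in capitals. These paralogs are similar in sequence, and the sources used here do not say how reads that match more than 1 gene were counted.

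Cxcl1 (KC, chromosome 5, 90891241 to 90893115, plus strand) was at 51.7, 35.3, 20.3 and 54.2 CPM in post-caerulein 01 to 04, against 14.5, 10.3 and 52.0 CPM in untreated 01 to 03. Cxcl2 (MIP-2) was at 151, 38.7, 30.5 and 40.9 CPM in post-caerulein 01 to 04, against 18.5, 15.4 and 64.8 CPM in untreated 01 to 03. Both were lowest in untreated 01 and 02, and untreated 03 lay within the post-caerulein range, so the groups overlapped. Cxcl1 had a log2 change of 1.09 ± 0.41 (SE) with the block (adjusted p = 0.232, edgeR quasi-likelihood test, Benjamini-Hochberg) and 0.66 ± 0.59 without it (adjusted p = 0.835).

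Cxcl5 (LIX), which epithelial cells are known to produce, had the highest ratio of its top to its bottom library among tested members with reads in every library. It was at 418, 57.7, 45.5 and 10.3 CPM in post-caerulein 01 to 04, against 70.9, 71.7 and 2.29 CPM in untreated 01 to 03. Post-caerulein 01 stood 9.20-fold above the median of the other post-caerulein libraries, untreated 01 and 02 lay above post-caerulein 02 and 03, and untreated 03 was the lowest. Cxcl3 was at 22.7, 3.77, 3.50 and 1.77 CPM in post-caerulein 01 to 04, against 4.58, 4.01 and 0.979 CPM in untreated 01 to 03, with the same libraries high and low as for Cxcl5. Cxcl5 and Cxcl3 were thus low in the libraries (post-caerulein 04 and untreated 03) in which Cxcl1 had its 2 highest values. All 4 tested ELR chemokines had positive log2 changes, between 1.09 (Cxcl1) and 1.50 (Cxcl5) with the block, and 0 of 4 were called. Cxcl15 had 19 reads in all 7 libraries together, 9 of them in post-caerulein and 10 in untreated libraries, and was not tested.

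**Figure D2:**
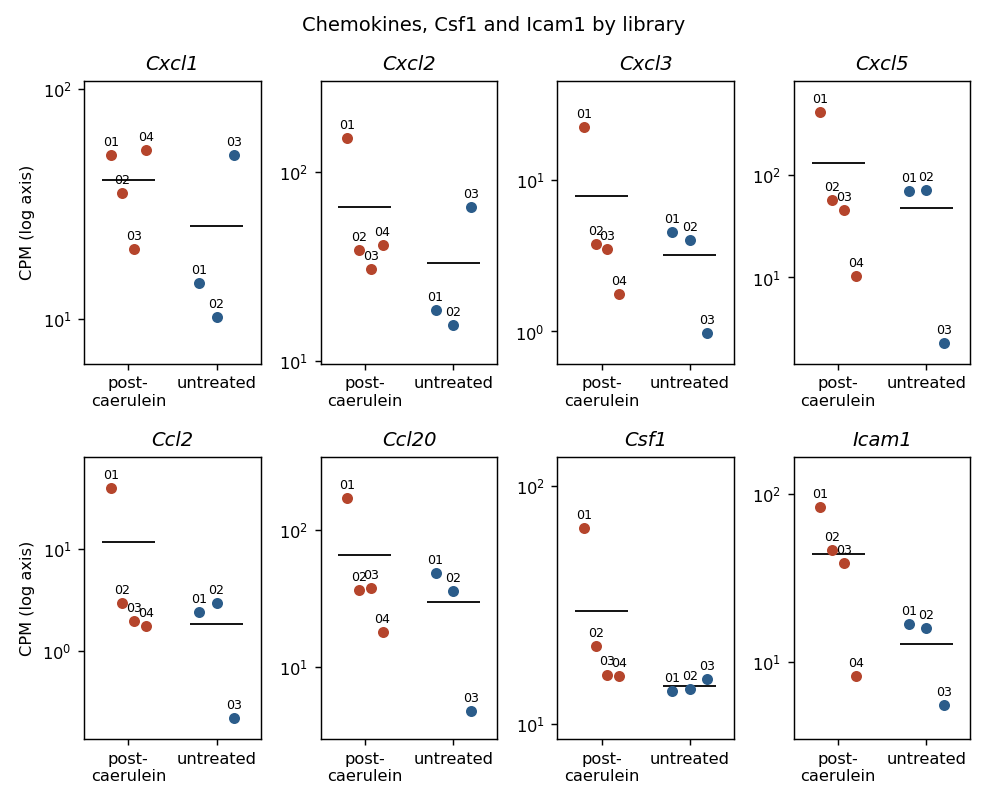
CPM (log axis) of 6 chemokines, Csf1 and Icam1 in each library; points carry the library number and lines are group means. Post-caerulein 01 is the highest library for all of these except Cxcl1, which reaches 54.2 CPM in post-caerulein 04.

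Ccl2 and Ccl20 had the same single high library. Ccl2 (MCP-1), the main attractant of monocytes, was at 39.4, 2.97, 1.96 and 1.77 CPM in post-caerulein 01 to 04, against 2.43, 2.95 and 0.222 CPM in untreated 01 to 03. Its level in post-caerulein 01 was 20.1 times the median of the other post-caerulein libraries, which were close to untreated 01 and 02. The log2 change of Ccl2 was 2.56 ± 1.10 (SE) with the block (adjusted p = 0.289, edgeR quasi-likelihood test, Benjamini-Hochberg), and it was 0.69 without post-caerulein 01 (adjusted p = 0.680); without the block it was 2.62 ± 1.39, and 0.28 without that library. Over the alternatives with the block its adjusted p lay between 0.156 and 0.758. Ccl20, which attracts CCR6-bearing dendritic cells and lymphocytes, was at 172, 36.8, 38.2 and 18.1 CPM in post-caerulein 01 to 04, against 48.7, 36.3 and 4.76 CPM in untreated 01 to 03, and neither passed the test. Ccl7, a second ligand for monocytes that neighbours Ccl2 on chromosome 11, had 6 reads in post-caerulein and 4 reads in untreated libraries and was not tested.

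The 2 transmembrane chemokines were steadier. Cxcl16, which binds CXCR6, ranged over 120.1 to 246 CPM in post-caerulein libraries and 132 to 181 CPM in untreated ones, and Cx3cl1 (fractalkine) over 33.7 to 109 CPM in post-caerulein libraries and 29.9 to 84.9 CPM in untreated ones. The groups overlapped for both. Cx3cl1 was at 33.7 CPM in post-caerulein 04 and 29.9 CPM in untreated 03, the 2 lowest values.

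Ccl5 (RANTES, chromosome 11, 83525778 to 83530518, minus strand), which attracts T cells and is also induced by interferon, fell by 3.68 on the log2 scale with the block (SE 0.40, adjusted p = 0.0205, edgeR quasi-likelihood test, Benjamini-Hochberg). Its levels were low, at 0.0841, 0.166, 0.253 and 0.0210 CPM in post-caerulein 01 to 04, against 2.72, 2.13 and 0.133 CPM in untreated 01 to 03. They rest on 3, 6, 12 and 1 reads in the post-caerulein libraries, against 110, 101 and 6 reads in the untreated ones. Untreated 01 and 02 were the high libraries, while untreated 03 lay within the post-caerulein range, so the groups overlapped. Without the block the adjusted p was 0.284. The call with the block was lost without untreated 01, untreated 02 or post-caerulein 02 (adjusted p = 0.182, 0.194 and 0.0682). In those settings 0%, 0% and 0.18% of all genes were called. Without post-caerulein 03, and with the stricter filter, Ccl5 had too few reads to be tested. Over the alternatives with the block that could test it, its log2 change lay between -4.24 and -3.38 and its adjusted p between 2.09e-08 and 0.422. Interferon-stimulated genes were likewise highest in untreated 01 and 02: the summed level of 10 of them was 138, 215, 148 and 49.99 CPM in post-caerulein 01 to 04, against 730.0, 661 and 56.8 CPM in untreated 01 to 03. Their part in the result was not tested.

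Il33 (interleukin-33, chromosome 19, 29925114 to 29960718, plus strand), a nuclear alarmin released by damaged epithelium, was the member with the smallest adjusted p in the fit with the block. It was at 22.6, 19.6, 20.4 and 8.68 CPM in post-caerulein 01 to 04, against 57.9, 48.4 and 19.2 CPM in untreated 01 to 03. Each post-caerulein library lay below untreated 01 and 02, and post-caerulein 04 lay below untreated 03, which itself fell within the post-caerulein range. Mean levels were 17.8 ± 6.23 CPM (SD, n = 4) in post-caerulein and 41.8 ± 20.1 CPM (SD, n = 3) in untreated libraries. Il33 fell by 1.29 on the log2 scale with the block (SE 0.11, adjusted p = 0.00840, edgeR quasi-likelihood test, Benjamini-Hochberg), and without the block its adjusted p was 0.387. The call was lost without untreated 01 (adjusted p = 0.120), untreated 02 (0.0946) or post-caerulein 03 (0.0746). In those settings 0%, 0% and 0.0186% of all genes were called. Over all alternatives with the block the log2 change of Il33 stayed between -1.35 and -1.19, and its adjusted p lay between 2.08e-18 and 0.422 with close pairs summed.

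The other tested members of the interleukin-1 family did not pass. Il1a, an epithelial alarmin that signals through the interleukin-1 receptor, was at 3.59, 1.86, 2.32 and 2.08 CPM in post-caerulein 01 to 04, against 39.7, 18.5 and 1.54 CPM in untreated 01 to 03. Only untreated 01 and 02 were high, and untreated 03 was the lowest library. Its log2 change was -2.59 ± 0.76 (SE) with the block (adjusted p = 0.141, edgeR quasi-likelihood test, Benjamini-Hochberg) and -3.02 ± 0.85 without it (adjusted p = 0.297). Il18, an epithelial cytokine that is activated by caspase-1, ranged over 1.18 to 2.44 CPM in post-caerulein libraries and 0.734 to 1.79 CPM in untreated ones.

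Il1b, the inflammasome cytokine of myeloid cells, had 7 reads in post-caerulein and 18 in untreated libraries. Tslp, an epithelial inducer of type 2 immunity, had 2 reads in post-caerulein and 15 in untreated libraries, all 15 of them from untreated 01 and 02. Il6, the classical secondary NF-kB target that drives STAT3, had 10 reads in post-caerulein and 11 in untreated libraries and at most 0.124 CPM in any. None of these 3 passed the filter on low counts, and with no filter none of them was called in either fit. A count of 3 corresponds to between 0.0631 and 0.0841 CPM at these depths, so their levels rest on few reads. Tnf, the archetypal inducer of the pathway, was at 6.03, 1.28, 1.12 and 0.736 CPM in post-caerulein 01 to 04, against 2.18, 1.58 and 0.890 CPM in untreated 01 to 03. Post-caerulein 01 was again the high library and the groups overlapped. Il23a, a subunit of interleukin-23, ranged over 0.196 to 0.946 CPM in post-caerulein libraries and 0.675 to 0.957 CPM in untreated ones.

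**Figure D3:**
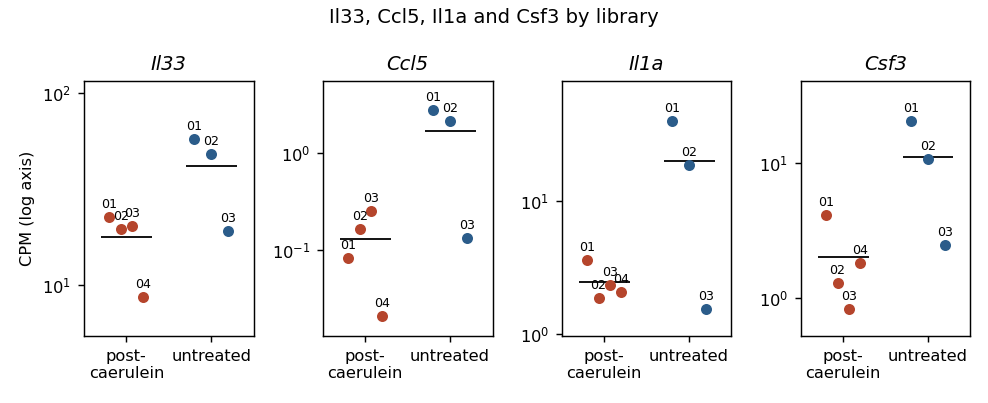
CPM (log axis) of Il33, Ccl5, Il1a and Csf3 in each library; points carry the library number and lines are group means. For each gene untreated 01 and 02 are the highest libraries, while untreated 03 lies within the post-caerulein range for Il33, Ccl5 and Csf3 and below it for Il1a.

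The colony-stimulating factors differed in which libraries were high. Csf1 (chromosome 3, 107741048 to 107760469, minus strand), the growth factor of macrophages, was the single tested member whose groups did not overlap, where 9.32% of all tested genes did not (4.67% higher and 4.65% lower in post-caerulein libraries). It was at 66.6, 21.3, 16.1 and 15.8 CPM in post-caerulein 01 to 04, against 13.8, 14.1 and 15.4 CPM in untreated 01 to 03, and the gap between post-caerulein 04 and untreated 03 was small. Its log2 change was 0.94 ± 0.54 (SE) with the block (adjusted p = 0.426, edgeR quasi-likelihood test, Benjamini-Hochberg) and 1.06 ± 0.53 without it (adjusted p = 0.608). Post-caerulein 01 decided that value: without it the change was 0.32 with the block and 0.32 without the block.

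Csf3 (G-CSF, chromosome 11, 98701263 to 98703629, plus strand), which drives the production of neutrophils, was at 4.12, 1.28, 0.822 and 1.81 CPM in post-caerulein 01 to 04, against 20.6, 10.7 and 2.45 CPM in untreated 01 to 03. The high libraries were untreated 01 and 02, as for Il1a, and untreated 03 lay within the post-caerulein range. Its log2 change was -2.28 ± 0.69 (SE) with the block (adjusted p = 0.150, edgeR quasi-likelihood test, Benjamini-Hochberg) and -2.49 ± 0.76 without it (adjusted p = 0.328). Csf2 (GM-CSF) ranged over 0 to 0.421 CPM in post-caerulein libraries and 0.0248 to 0.289 CPM in untreated ones, so its levels rested on few reads.

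Of the 2 effector genes, Icam1 (chromosome 9, 21015985 to 21028817, plus strand) encodes the adhesion molecule that binds leukocyte integrins. In the fit with the block, Icam1 came nearest to the threshold among members that were higher in post-caerulein libraries. Without the block Nfkbie came nearer. It was at 82.8, 46.1, 38.6 and 8.26 CPM in post-caerulein 01 to 04, against 16.9, 16.1 and 5.58 CPM in untreated 01 to 03. Post-caerulein 01, 02 and 03 lay above every untreated library, and post-caerulein 04 above untreated 03 alone. Its log2 change was 1.42 ± 0.34 (SE) with the block (adjusted p = 0.0930, edgeR quasi-likelihood test, Benjamini-Hochberg) and 1.77 ± 0.72 without it (adjusted p = 0.490). Sod2, the mitochondrial superoxide dismutase that protects cells from TNF, had the smallest spread of the tested members relative to its mean, over 64.9 to 86.3 CPM in post-caerulein libraries and 62.2 to 66.6 CPM in untreated ones.

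**Figure D4:**
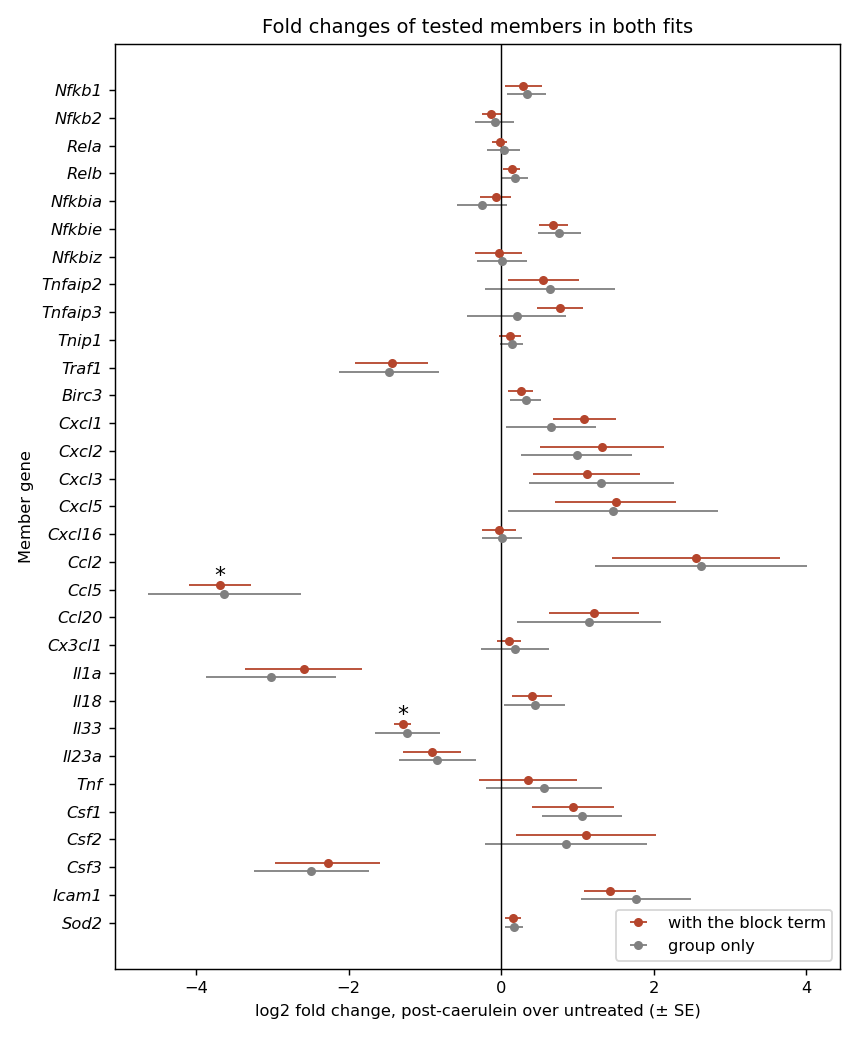
log2 fold change of each of the 31 tested members (post-caerulein over untreated, bars are ± SE) from the quasi-likelihood fit with the block term and from the fit with the group only. Asterisks mark Ccl5 and Il33, the 2 members called with the block; error bars are much shorter with the block for Il33 and Ccl5, for example 0.11 against 0.43 for Il33.

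The members were also read on either side of the block that sets post-caerulein 04 and untreated 03 apart. Among the other 5 libraries and between those 2 libraries, 5 members were higher in post-caerulein libraries on both sides without overlap (Nfkbie, Cxcl1, Csf1, Icam1 and Sod2) and 5 were lower (Traf1, Ccl5, Il33, Il23a and Csf3). All tested genes showed such a separation in 11.4% and 12.2% of cases, so these counts lie near the background, and the smaller side holds 1 library of each group. On that side some genes were nearly level. The ratios of post-caerulein 04 to untreated 03 were 1.003 for Sod2, 1.03 for Csf1, 1.04 for Cxcl1, 0.989 for Il23a and 0.945 for Traf1. Traf1 had 4 reads in each of these 2 libraries, and Il23a had 45 and 43, so their order rests on library scaling. With both libraries left out, a setting added after the data were seen, the edgeR quasi-likelihood test called 8 members. Nfkbie, Tnfaip3, Cxcl1 and Icam1 were higher and Ccl5, Il1a, Il33 and Csf3 lower, beside 13.8% of all genes called in that setting. There the p-values rest on 2 untreated libraries that are a close pair.

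The authors' deposited table lists 28 of the 36 members and gives a false discovery rate under 0.05 to 8 of them, where it does so for 7.88% of all its genes. In the authors' deposited table Nfkbie, Tnfaip3, Cxcl1, Ccl2 and Icam1 are higher in post-caerulein libraries, with log2 fold changes of 0.69, 0.79, 1.11, 2.60 and 1.43. In the authors' deposited table Il1a, Il33 and Csf3 are lower, at -2.56, -1.28 and -2.25. Of these 8, only Il33 passed the quasi-likelihood test with the block, and Ccl5 is not among the genes that the table lists.

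Other genes of the pathway were taken from 6 lists with 134 genes, of which 98 were tested: IkB kinases and Rel partners, TRAF and ubiquitin enzymes, upstream receptors, further NF-kB targets, further chemokines and chemokine receptors. The edgeR quasi-likelihood test, after Benjamini-Hochberg adjustment, called 0 of the 98 in either fit, with a smallest adjusted p of 0.219 without and 0.0617 with the block. At an unadjusted p under 0.05 the counts were 14 without and 20 with the block, where 9.5% and 17.5% of all tested genes passed. The 20 tested IkB kinase and Rel partner genes had a median log2 change of 0.01 with the block and the 20 TRAF and ubiquitin genes one of -0.01, and none of either list was called. The 29 receptors and adaptors had a median of 0.18, the 18 further targets 0.36, the 8 further chemokines -0.19 and the 3 chemokine and growth factor receptors 1.75. Groups did not overlap for 10 of the 98 (10.2%), all higher in post-caerulein libraries, where 4.67% of all tested genes were higher without overlap.

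Those 10 genes, named after their values were seen, were Traf3, Traf6, Il1r1, Tlr5, Irak3, Vcam1, Plau, Ninj1, Ccl28 and Csf1r, of which Csf1r is also a leukocyte marker. Il1r1, the receptor for Il1a and Il1b, was at 26.9, 11.3, 11.9 and 7.17 CPM in post-caerulein 01 to 04, against 5.69, 4.41 and 2.05 CPM in untreated 01 to 03. Irak3 (IRAK-M), an inhibitor of interleukin-1 and Toll-like receptor signalling, was at 7.24, 5.41, 5.67 and 3.05 CPM in post-caerulein 01 to 04, against 1.78, 1.79 and 2.07 CPM in untreated 01 to 03. Tlr5, the flagellin receptor, was at 12.7, 12.1, 13.8 and 11.1 CPM in post-caerulein 01 to 04, against 5.82, 5.65 and 9.05 CPM in untreated 01 to 03. All 3 were higher in each post-caerulein library than in any untreated one and, like the other 7, did not pass the test.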

How the data were processed

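Counts of reads per gene for 7 libraries (4 post-caerulein, 3 untreated) were used as the authors deposited them; per the submitters' processing notes, featureCounts 0.6.1 assigned reads on GRCm38 (mm10). The sources used here name neither aligner nor strand setting, and reads of overlapping or antisense genes cannot be told apart. The authors' deposited table gives log2 fold changes, average log2 CPM, a likelihood ratio score, p-values and false discovery rates from edgeR 3.2.2, per the file headers and the submitters' processing notes.

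Groups and numbers came from the titles. Symbols were matched for 54409 of 54446 genes. Counts were filtered by filterByExpr (10 counts, 15 in total), scaled by TMM and tested two-sided with edgeR 4.0.16 (quasi-likelihood, robust) in R 4.3.3, with Benjamini-Hochberg adjustment over 16438 genes and a threshold of 0.05. SE is the log2 fold change divided by the root of F. The procedure was run on simulated counts whose spread between libraries was taken from the fit with the block. For the fit without the block no block effect was simulated, so that run does not show how this fit performs on these data. Alternatives were RLE scaling, other filters, each library left out, the replicate number as a block, DESeq2 1.42.0, limma-voom (limma 3.58.1), summed close pairs and, added later, both libraries of the block left out. Figures used matplotlib 3.10.9.

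The members, the lists and the block were chosen with earlier results of these data known. Fold changes are given for members called in either fit or without overlap (Il33, Ccl5, Csf1) and, chosen after their values were seen, for those called in the authors' deposited table.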

Additional observations from a re-analysis of the deposited data

Results flagged for a closer look

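Among the 4 post-caerulein libraries, the highest or lowest library stood apart from the other 3 for 12 of the 31 tested members (38.7%), by Dixon's criterion for groups of 4. Chance flags about 1 group in 20, and 9.1% of all tested genes were flagged. For 10 members post-caerulein 01 was the high library (32.3%, against 2.09% of all tested genes). Its values were 198 CPM for Nfkb1, 249 CPM for Nfkbiz, 151 CPM for Cxcl2, 22.7 CPM for Cxcl3, 418 CPM for Cxcl5, 246 CPM for Cxcl16, 39.4 CPM for Ccl2, 172 CPM for Ccl20, 6.03 CPM for Tnf and 66.6 CPM for Csf1. Post-caerulein 04 was low for Relb, at 47.5 CPM, and high for Tnfaip3, at 395 CPM. The group of 3 untreated libraries is too small for this rule.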

How the results depend on the processing

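Without the block, 0 members were called by edgeR's quasi-likelihood test with RLE scaling, with other filters, by limma-voom, with close pairs summed and with the replicate block. DESeq2 called 3 (Ccl5, Il1a and Csf3), beside 3.12% of all genes, and leaving out both libraries of the block gave 8, beside 13.8%. With 1 library left out, 0 to 4 were called, the 4 (Ccl5, Il1a, Il33 and Csf3) without untreated 03, beside 6.83% of all genes. With the block, RLE scaling, no filter and limma-voom called the same 2 members, beside 1.42%, 1.91% and 2.18% of all genes. The filter of 50 counts in 3 libraries called 1 (Il33, as Ccl5 was not tested), beside 1.1%. DESeq2 called 6, the replicate block 8 and summed close pairs 0, beside 9.16%, 7.2% and 0% of all genes. With 1 library left out, 0 to 8 were called, and the share of all genes called moved as well. The count was 0 if untreated 01, untreated 02 or post-caerulein 03 was omitted, beside 0%, 0% and 0.0186% of all genes. It was 1 for post-caerulein 02, beside 0.18%, and 2 for post-caerulein 01, beside 0.807%. It was 8 for post-caerulein 04 or untreated 03, beside 13% and 13.5%. There the other library of the block is alone in its term and adds nothing to the comparison. With the replicate block added to the block, the terms fit post-caerulein 03, post-caerulein 04 and untreated 03 exactly. The comparison in that fit thus rests on libraries 01 and 02 of each group. For the remaining changes the cause was not tested. The replicate numbers share no stated animal or batch: deviations from the group means correlated at 0.37, 0.14 and -0.21 for numbers 1, 2 and 3, so they were not taken as pairs. Of the 10 members with fold changes, only Tnfaip3 changed sign, and only without the block, at -0.22 to 1.55 over the left-out libraries and -0.0855 with close pairs summed. Depth limits the 5 untested members, which had at most 11 reads in a library.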

Other observations

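Among genes of the pathway outside the members, named after their values were seen and called in neither fit, the antagonist and acute phase genes stood among the abundant ones. Lcn2 (lipocalin-2), an iron-sequestering epithelial defence protein, was at 3300.1, 1948, 2086 and 1425 CPM in post-caerulein 01 to 04, against 1061, 963 and 1683 CPM in untreated 01 to 03. Il1rn, the interleukin-1 receptor antagonist, was at 909, 415, 449 and 172 CPM in post-caerulein 01 to 04, against 406, 388 and 112 CPM in untreated 01 to 03, with post-caerulein 04 and untreated 03 as the low libraries. Both were highest in post-caerulein 01.

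Chemokines outside the members differed in which libraries were high. Ccl28, a mucosal epithelial chemokine, was at 31.5, 5.94, 8.87 and 8.68 CPM in post-caerulein 01 to 04, against 1.56, 1.50 and 3.36 CPM in untreated 01 to 03. Cxcl17, a mucosal chemokine, was at 11.3, 23.7, 22.9 and 5.42 CPM in post-caerulein 01 to 04, against 116, 104 and 7.56 CPM in untreated 01 to 03, and the interferon-induced Cxcl10 was at 2.75, 2.97, 2.11 and 0.210 CPM in post-caerulein 01 to 04, against 7.25, 5.42 and 0.200 CPM in untreated 01 to 03. The last 2 were highest in untreated 01 and 02, the libraries in which Ccl5, Il33, Il1a and Csf3 were also highest.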
